A study of Homo sapiens with 12 samples.

Results

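The genes described here are the long intergenic noncoding RNA genes that carry a LINC symbol, the root name given to such genes that have no name from a function or a neighbour. They were chosen as the rows of the count table whose Ensembl identifier, without its version, maps to a symbol made of LINC and a number. This gave 2097 of the 57783 genes of the table, of which 237 had enough counts to be tested, among 16327 tested genes in all. Another 1108 had 0 counts in every library and 752 had some counts but too few for the test. Of the 2097 genes, GENCODE 29 classes 1913 as lincRNA, 93 as antisense, 52 as processed transcript and 8 as protein-coding, so the symbol and the annotated type are not the same thing.

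The RNA came from MDA-MB-468, an established human cell line of triple-negative breast cancer, grown in culture. Cells had spent 10 days with the solvent DMSO or with 0.5 µM EPZ5676 (pinometostat), an inhibitor of DOT1L, and were then sorted by flow cytometry into ALDH1+ and ALDH1- cells. The sort rests on aldehyde dehydrogenase activity, by which tumour cells with stem-like behaviour are commonly enriched. Both populations were sorted from the cells of each treatment, which gives 4 groups (DMSO ALDH1+, EPZ5676 ALDH1+, DMSO ALDH1-, EPZ5676 ALDH1-). Each group has 3 libraries that the labels call biological replicates. All come from 1 cell line, and none was taken without solvent or before sorting. Total RNA was made into strand-specific libraries of 24348594 to 80195050 counts.

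Long intergenic noncoding RNAs are transcribed by RNA polymerase II from their own promoters, lie between protein-coding genes, are mostly spliced, and are typically made at lower levels and in fewer tissues than messenger RNAs. Some act on chromatin or transcription near their own locus, some act elsewhere in the cell, and for most no function is known. DOT1L methylates lysine 79 of histone H3 in the bodies of transcribed genes, a mark that accompanies active transcription.

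LINC genes took a larger share of the library counts in EPZ5676-treated cells than in DMSO cells. All 2097 LINC genes together took 913, 896 and 884 ppm (counts in 1000000 counts of the library) in replicates 1, 2 and 3 of DMSO ALDH1+ and 1001, 1026 and 1042 ppm in EPZ5676 ALDH1+. For the ALDH1- cells the shares were 956, 938 and 933 ppm with DMSO and 992, 1044 and 1033 ppm with EPZ5676. Every EPZ5676 library lay above every DMSO library. The mean rose from 898 ± 14.6 to 1023 ± 20.5 ppm in ALDH1+ and from 942 ± 11.8 to 1023 ± 27.5 in ALDH1- (SD, n = 3), which is 13.9% and 8.53% more. The difference averaged over both populations was 103 ppm (exact two-sided permutation test within populations, p = 0.005, the smallest p it can give). That test does not use the pairing of libraries by replicate number. Over the 6 pairs, all of them higher with EPZ5676, an exact sign permutation test gave p = 0.03125, again the smallest possible. Both tests treat the ALDH1+ and ALDH1- libraries as independent. Libraries with the same replicate number deviated together across the populations, so both p-values may be too small. Within 1 population, 3 against 3 libraries gave p = 0.1, the smallest that the exact permutation test allows there. In bulk RNA, a change in the number of cells that make a transcript and a change in the RNA per cell cannot be told apart.

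More LINC genes were also detected. At the depth of the smallest library, 509 ± 6.06 LINC genes were expected to have a count in DMSO ALDH1+ and 565 ± 7.67 in EPZ5676 ALDH1+ (SD, n = 3). The numbers were 511 ± 5.37 and 581 ± 11.3 in ALDH1-. The difference of 62.8 genes is a rise of 12.3%, with no overlap between treatments. The exact two-sided permutation test within populations gave p = 0.005, the smallest possible. The exact sign permutation test over the 6 pairs gave p = 0.03125, also the smallest possible. As for the share, both tests treat the populations as independent, so both p-values may be too small. The other genes of the table also rose in number, from 22542 to 23302, or by 3.37%.

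**Figure D1:**
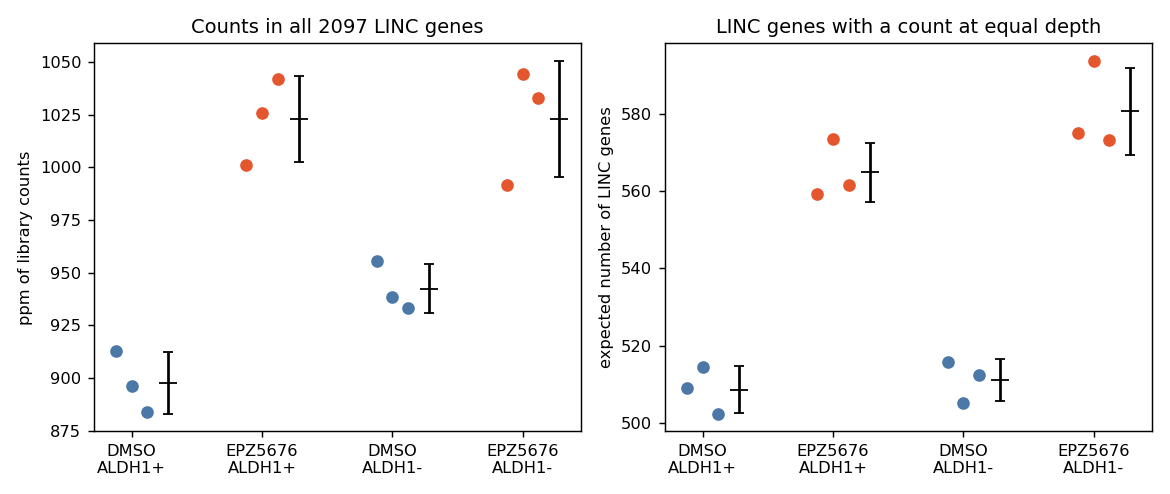
Counts in all 2097 LINC genes in ppm of the counts of each library (left) and the number of LINC genes expected to have a count at equal depth (right). Points are the 12 libraries, in order of replicate within each group, and bars are the mean ± SD of 3; the axes do not start at 0, and all EPZ5676 points lie above all DMSO points in both panels.

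A few genes made much of the larger share. LINC00707 alone went from 14.1 to 40.9 ppm between the means of the DMSO and the EPZ5676 libraries, a difference of 26.8. Without it, a choice made after seeing the data, the difference over the remaining LINC genes was 76.0 ppm, with the same exact permutation p of 0.005. The next largest differences were LINC01133 with 7.80, LINC00667 with 7.64 and LINC01128 with 7.17 ppm. LINC01278 fell by 9.48 ppm and LINC01224 fell by 7.83 ppm; LINC01224 and LINC01133 rank here by their contribution and were singled out after their values were seen. Over all LINC genes the rises summed to 176 ppm, with 40.4% of it in the 8 largest, and the falls to -73.4 ppm.

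Gene by gene, more LINC genes were called higher than lower with EPZ5676. A gene is called here when edgeR's quasi-likelihood test gives an adjusted p (Benjamini-Hochberg over all 16327 genes) below 0.05. In ALDH1+, 68 of the 237 LINC genes were called higher, or 28.7%, beside 17.8% of all tested genes, and 28 were called lower, or 11.8%, beside 13.7%. In ALDH1-, 49 were called higher, or 20.7%, beside 13.6% of all tested genes, and 19 lower, or 8.02%, beside 9.04%. The median log2 fold change of the 237 was 0.20 in ALDH1+ and 0.17 in ALDH1-, against -0.01 and -0.02 over all tested genes. At least 2-fold, 47 LINC genes rose and 16 fell in ALDH1+ (beside 7.31% and 1.45% of all tested genes), and 36 rose and 9 fell in ALDH1- (beside 5.94% and 0.882%). In ALDH1+ the 3 libraries of each treatment did not overlap for 86 LINC genes that were higher and 35 that were lower (22% and 19.4% of all tested genes). In ALDH1- this held for 66 and 31 (19.7% and 19.4%). The ALDH1- counts lean on single libraries: 29 were called higher without EPZ5676 ALDH1- replicate 2, and 12 lower without DMSO ALDH1- replicate 2 or without EPZ5676 ALDH1- replicate 1. With a stricter filter of 1 CPM in 3 libraries, 40 LINC genes were called higher in ALDH1+ and 25 in ALDH1-.

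The 237 genes are not the whole family, because a gene silent in DMSO enters the test only through its EPZ5676 libraries and then had to differ. Of the 237, 177 would pass the count filter through the libraries of either treatment alone, 43 (18.1%) only through EPZ5676 and 12 (5.06%) only through DMSO. Over all tested genes 4.26% passed only through EPZ5676 and 1.63% only through DMSO. Among the 68 called higher in ALDH1+, 35 passed through both and 33 only through EPZ5676, and among the 49 in ALDH1- the numbers were 23 and 26. The share of library counts above uses no such filter.

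The calls of both populations overlapped, as they did over all genes. Of the LINC genes called higher, 39 were called in both populations, which is 57.4% of those in ALDH1+ and 79.6% of those in ALDH1-; over all tested genes the shares were 67.9% and 88.8%. Of the genes called lower, 14 were shared, 50% and 73.7%, beside 48.3% and 73.3% over all tested genes. No LINC gene was called in opposite directions. The 2 comparisons have no library in common, but libraries with the same replicate number deviated together across populations, with correlations of 0.162 to 0.596 in all 18 pairs, so they are not independent.

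**Figure D2:**
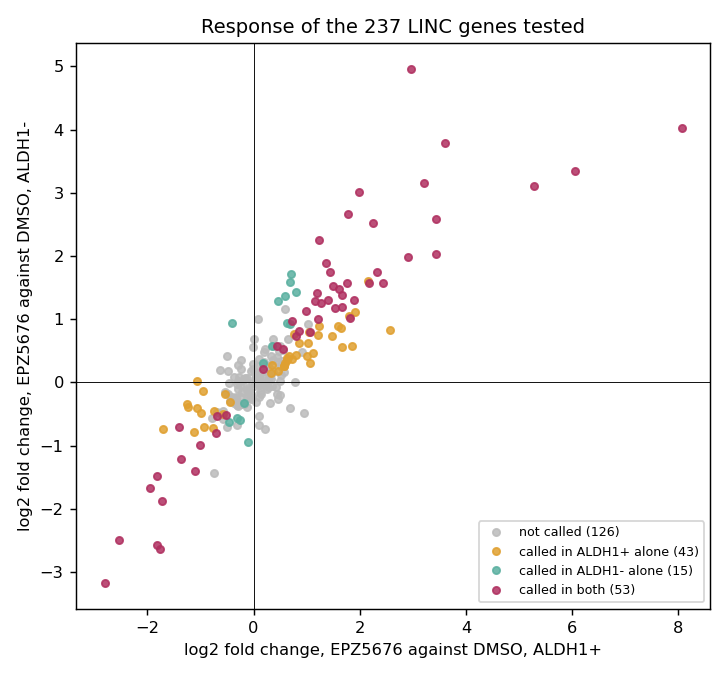
Log2 fold change of the 237 tested LINC genes, EPZ5676 against DMSO, in ALDH1+ (horizontal axis) and ALDH1- (vertical axis). Colour marks the population in which a gene was called by edgeR at an adjusted p below 0.05; the 53 genes called in both lie in the upper right and the lower left, with 39 higher and 14 lower.

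Level matters for such a count, since LINC genes are low: their median level over the 12 libraries was 0.95 CPM (counts in 1000000 counts of the TMM-scaled library), against 30.7 for protein-coding genes and 0.926 for other long noncoding genes. All other tested genes were therefore set in 5 classes of mean DMSO level and weighted to the LINC levels, as a description without a test. So weighted, 24.3% of the other genes were called higher in ALDH1+ and 6.71% lower, beside 28.7% and 11.8% of LINC genes. In ALDH1- the weighted shares were 19.4% higher and 3.7% lower, beside 20.7% and 8.02%. With classes from the mean of all 12 libraries in place of DMSO alone, the weighted shares of other genes were 21.2% higher and 7.41% lower in ALDH1+, and 16.5% and 4.15% in ALDH1-. The LINC shares were above the weighted ones in both directions under both ways of setting classes, with the gap in rises wider under the second. By DMSO class the rises ran in different directions. Under 0.5 CPM in DMSO, 42.7% of 82 LINC genes were called higher in ALDH1+ against 33.0% of 1581 others, and 39.0% against 26.4% in ALDH1-. This class is shaped by the filter, since 43 of the 82 LINC genes and 653 of the 1581 others (41.3%) had passed only through their EPZ5676 libraries. Among the rest of the class 2 of 39 LINC genes were called higher in ALDH1+ and 6 of 39 in ALDH1-, against 12.2% and 8.62% of 928 others. Between 2 and 5 CPM the order was the other way for rises, 14% against 23.2% in ALDH1+, while 23.3% of LINC genes against 9.59% of others were called lower. At 5 CPM or more, 22.9% of 35 LINC genes were called higher in ALDH1+ against 14% of the others. ALDH1+ shares were 25.5% against 19.1% from 0.5 to 1 CPM and 23.3% against 22.6% from 1 to 2. In ALDH1-, LINC shares called higher were smaller from 0.5 to 1 CPM (8.51% against 15.1%) and from 1 to 2 (13.3% against 17.6%). They were also smaller from 2 to 5 CPM (11.6% against 19.2%), and at 5 or more they were 11.4% against 10.3%. The ALDH1- gap in rises thus lay mainly under 0.5 CPM, the class shaped by the filter.

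**Figure D3:**
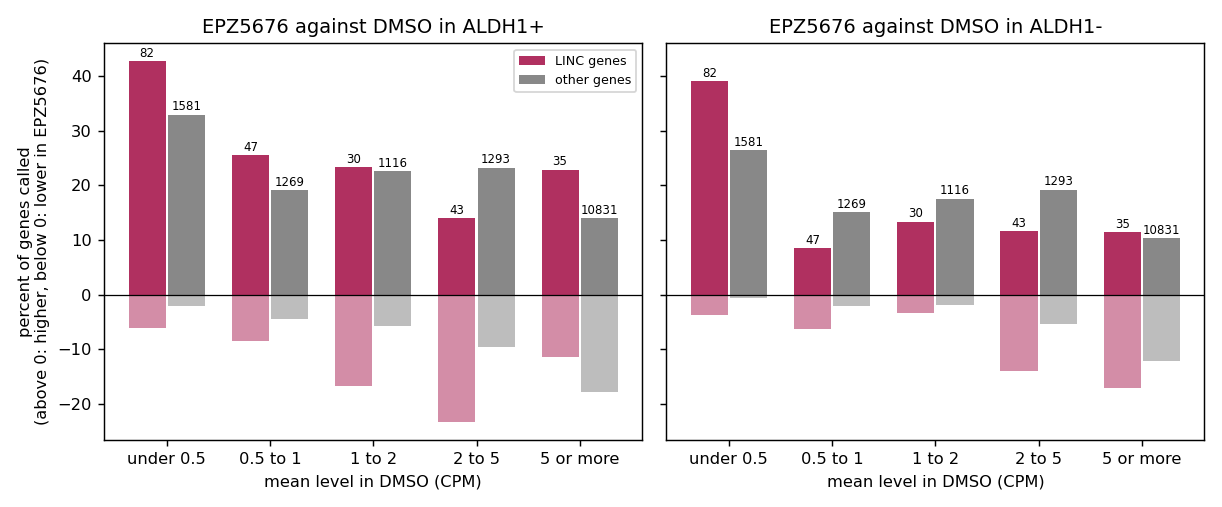
Percent of LINC genes and of all other tested genes called higher (above 0) or lower (below 0) in EPZ5676, by mean CPM in the 6 DMSO libraries; the number over each bar is the number of genes in it. LINC genes have taller upper bars under 0.5 CPM. In both populations they have a longer lower bar than other genes in each class under 5 CPM, and in ALDH1- also at 5 CPM or more.

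Shares also differed by the kind of gene. Of 1619 tested long noncoding genes without a LINC symbol, at nearly the same median level, 11.9% were called higher and 7.6% lower in ALDH1+, and 8.15% and 3.89% in ALDH1-. Protein-coding genes weighted to the LINC levels were called higher in 34.0% and lower in 7.5% in ALDH1+, and in 27.7% and 4.08% in ALDH1-. The LINC share of 28.7% in ALDH1+ thus lay between that of coding genes of like level and that of other long noncoding genes; these shares were not compared by a test.

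The strongest rises by log2 fold change came from genes that were almost silent in DMSO, and a ranking by fold change favours such genes. The genes named were the 10 largest called rises and falls of each population whose libraries did not overlap and whose higher group reached 1 CPM. LINC00973, LINC02535, LINC00839, LINC02154, LINC01612, LINC02487 and LINC00622 passed the count filter only through their EPZ5676 libraries, as did LINC00520, described further below. Their calls and the gap between their libraries are therefore not independent of how they were picked. LINC00973 (ENSG00000240476.1, chromosome 3), a lincRNA, had 0.291, 0.557 and 0.142 CPM in replicates 1 to 3 of DMSO ALDH1+ and 3.24, 4.30 and 2.76 in EPZ5676 ALDH1+. In ALDH1- it had 0.256, 0.306 and 0.307 CPM in DMSO and 3.75, 4.10 and 4.28 in EPZ5676. All 6 treated libraries were far above all 6 controls, and the log2 fold change was 3.60 (SE 0.31, edgeR adjusted p = 9.15e-07) in ALDH1+ and 3.79 (SE 0.33, adjusted p = 1.70e-06) in ALDH1-.

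LINC02535 (ENSG00000234155.1, chromosome 6) had 0.254, 0.159 and 0.124 CPM in DMSO ALDH1+ and 2.35, 1.74 and 1.48 in EPZ5676 ALDH1+. Its ALDH1- levels were 0.330, 0.204 and 0.345 CPM in DMSO and 2.12, 1.79 and 1.39 in EPZ5676. No control reached the lowest treated library, and it rose by 3.43 (SE 0.32) and 2.59 (SE 0.31) on the log2 scale (edgeR adjusted p = 1.78e-06 and 3.10e-05). LINC00839 (ENSG00000185904.7, chromosome 10) had 0.145, 0.0796 and 0.177 CPM in DMSO ALDH1+ and 1.32, 1.74 and 0.909 in EPZ5676 ALDH1+. Its groups were as far apart in ALDH1-, with means of 0.157 ± 0.06 and 1.43 ± 0.10 CPM, and the log2 fold changes were 3.22 and 3.16.

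LINC02154 on the X chromosome had 0.0364, 0.0796 and 0.0354 CPM in DMSO ALDH1+ and 1.32, 2.73 and 1.38 in EPZ5676 ALDH1+. The ALDH1- libraries had 0.476, 0.136 and 0.230 CPM in DMSO and 2.61, 2.73 and 1.90 in EPZ5676. Treated libraries were again higher throughout, with 5 counts in all in DMSO ALDH1+ behind the fitted log2 fold change of 5.27. LINC01612 on chromosome 4 had 2 counts over the 3 DMSO ALDH1+ libraries and 220 over the EPZ5676 ALDH1+ libraries, a ratio of CPM of 87.3 with a 95% counting interval of 23.9 to 725. In ALDH1- it rose from 0.0837 ± 0.07 to 0.879 ± 0.28 CPM (SD, n = 3), by 3.34 on the log2 scale (edgeR adjusted p = 0.000689). LINC02487, whose mean stayed under 1 CPM and which is named outside the rule because it had the highest fitted value, had 0 counts in DMSO ALDH1+ and 145 in EPZ5676 ALDH1+, at least 38.3-fold higher when 3 counts over the group are taken as the floor. The fitted value and that bound both lie above the median of the 237, so taking the bound cannot move the median of 0.20.

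LINC00707 on chromosome 10 joined a large rise to a high count. It had 15.7, 15.5 and 10.1 CPM in DMSO ALDH1+ and 48.5, 44.1 and 36.3 in EPZ5676 ALDH1+. Among ALDH1- cells the levels were 16.7, 14.7 and 12.8 CPM in DMSO and 42.3, 39.4 and 33.3 in EPZ5676. Replicate 3 was the lowest library of every group, and the groups stayed apart, with log2 fold changes of 1.66 (SE 0.16, edgeR adjusted p = 2.99e-06) and 1.38 (SE 0.16, adjusted p = 2.63e-05). LINC01204, LINC00370, LINC02762 and LINC01559 rose in both populations too, by 2.17, 1.82, 1.66 and 1.53 on the log2 scale in ALDH1+ and by 1.57, 1.02, 1.20 and 1.17 in ALDH1-. LINC01444, LINC00622 and LINC00702 rose by 1.53, 1.75 and 1.30 in ALDH1- and by 1.49, 1.44 and 1.39 in ALDH1+.

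LINC00460 on chromosome 13, studied as a promoter of growth and invasion in several carcinomas, differed between the populations in its call. It had 0.440, 0.442 and 0.460 CPM in DMSO ALDH1- and 1.51, 1.16 and 0.990 in EPZ5676 ALDH1-, a log2 fold change of 1.44 (SE 0.32, edgeR adjusted p = 0.00411). In ALDH1+ it had 0.509, 0.119 and 0.354 CPM in DMSO and 0.570, 0.551 and 0.674 in EPZ5676. There the groups were apart by little and the change of 0.80 missed the threshold (adjusted p = 0.0792); it passed with a replicate block (0.84, adjusted p = 0.043) and without DMSO ALDH1+ replicate 1 (1.10, adjusted p = 0.032). The difference between both effects was not called (adjusted p = 0.979).

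The largest falls were of genes at a few CPM in DMSO. LINC02643 (ENSG00000230109.1, chromosome 10) had 2.87, 2.27 and 2.41 CPM in DMSO ALDH1+ and 0.356, 0.288 and 0.505 in EPZ5676 ALDH1+. In ALDH1- it had 2.05, 2.55 and 2.03 CPM in DMSO and 0.122, 0.210 and 0.396 in EPZ5676. No treated library came near a control, and it fell by 2.79 (SE 0.26) and by 3.17 (SE 0.31) on the log2 scale (edgeR adjusted p = 1.89e-06 and 5.58e-06). LINC02643 passed the count filter only through its DMSO libraries. Its calls and the gap between its libraries are therefore not independent of how it was picked. LINC00887 (ENSG00000214145.2, chromosome 3) had 3.45, 2.99 and 2.57 CPM in DMSO ALDH1+ and 0.356, 0.413 and 0.842 in EPZ5676 ALDH1+. In ALDH1- it had 1.58, 2.21 and 2.30 CPM in DMSO and 0.367, 0.280 and 0.436 in EPZ5676. It fell by 2.53 and by 2.49 on the log2 scale, with no overlap in either population.

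LINC02515 on chromosome 4 went from 6.69, 5.77 and 8.07 CPM to 1.82, 1.83 and 2.26 in ALDH1+, and fell by 1.82 there and by 1.48 in ALDH1- on the log2 scale. LINC03040, which GENCODE 29 still types as protein-coding, went from 12.3, 10.5 and 9.41 CPM to 4.70, 4.01 and 3.74 in ALDH1+ and fell by 1.37 and by 1.21. Both were called in both populations (edgeR). LINC01132 fell by 1.00 in ALDH1+ and by 0.99 in ALDH1-, and LINC01836 fell by 0.70 and by 0.80.

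Some falls were called in ALDH1+ alone or had a weak call in ALDH1-. LINC02541 had 2.44, 2.07 and 2.49 CPM in DMSO ALDH1+ and 0.784, 1.00 and 1.18 in EPZ5676 ALDH1+, and it fell by 1.24 on the log2 scale (edgeR adjusted p = 0.000479). In ALDH1- it had 2.20, 2.65 and 2.34 CPM in DMSO and 2.49, 1.58 and 1.43 in EPZ5676, where replicate 1 overlapped the controls (log2 fold change -0.40, adjusted p = 0.212). Without that library the ALDH1- change was -0.67 and passed (adjusted p = 0.042). LINC00892 and LINC01235 fell by 1.70 and by 1.06 in ALDH1+ (adjusted p = 0.00322 and 0.0148) and were at -0.73 and -0.40 in ALDH1- (adjusted p = 0.289 and 0.435). LINC02303 fell by 1.40 in ALDH1+ and by 0.70 in ALDH1-, the second lost without DMSO ALDH1- replicate 2 (-0.66, adjusted p = 0.051) or without EPZ5676 ALDH1- replicate 2 (-0.50, adjusted p = 0.078). LINC00885 fell by 1.11 in ALDH1+ and was at -0.79 in ALDH1- (adjusted p = 0.0505), where the replicate block (-0.80, adjusted p = 0.020) and leaving out EPZ5676 ALDH1- replicate 3 (-0.98, adjusted p = 0.037) brought it past the threshold. None of these genes was called in the difference of effects.

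LINC01895, LINC01270 and LINC00106 fell by 0.56, by 0.63 and by 0.60 in ALDH1- (edgeR adjusted p = 0.0109, 0.0391 and 0.0372) and were at -0.31, -0.46 and -0.25 in ALDH1+, where none was called. These ALDH1- calls are weak: LINC01895 lost its call without DMSO ALDH1- replicate 3 (adjusted p = 0.055), and LINC00106 lost its call without any 1 of the 6 ALDH1- libraries (adjusted p from 0.052 to 0.163), with no filter (0.13) and by DESeq2 (0.10). LINC01270 lost its call without any 1 of the 3 DMSO libraries or without EPZ5676 ALDH1- replicate 1 or 2, with adjusted p up to 0.135. With the replicate block LINC01270 passed in ALDH1+ as well (-0.46, adjusted p = 0.034), as it did without EPZ5676 ALDH1+ replicate 3 (-0.69, adjusted p = 0.0072).

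**Figure D4:**
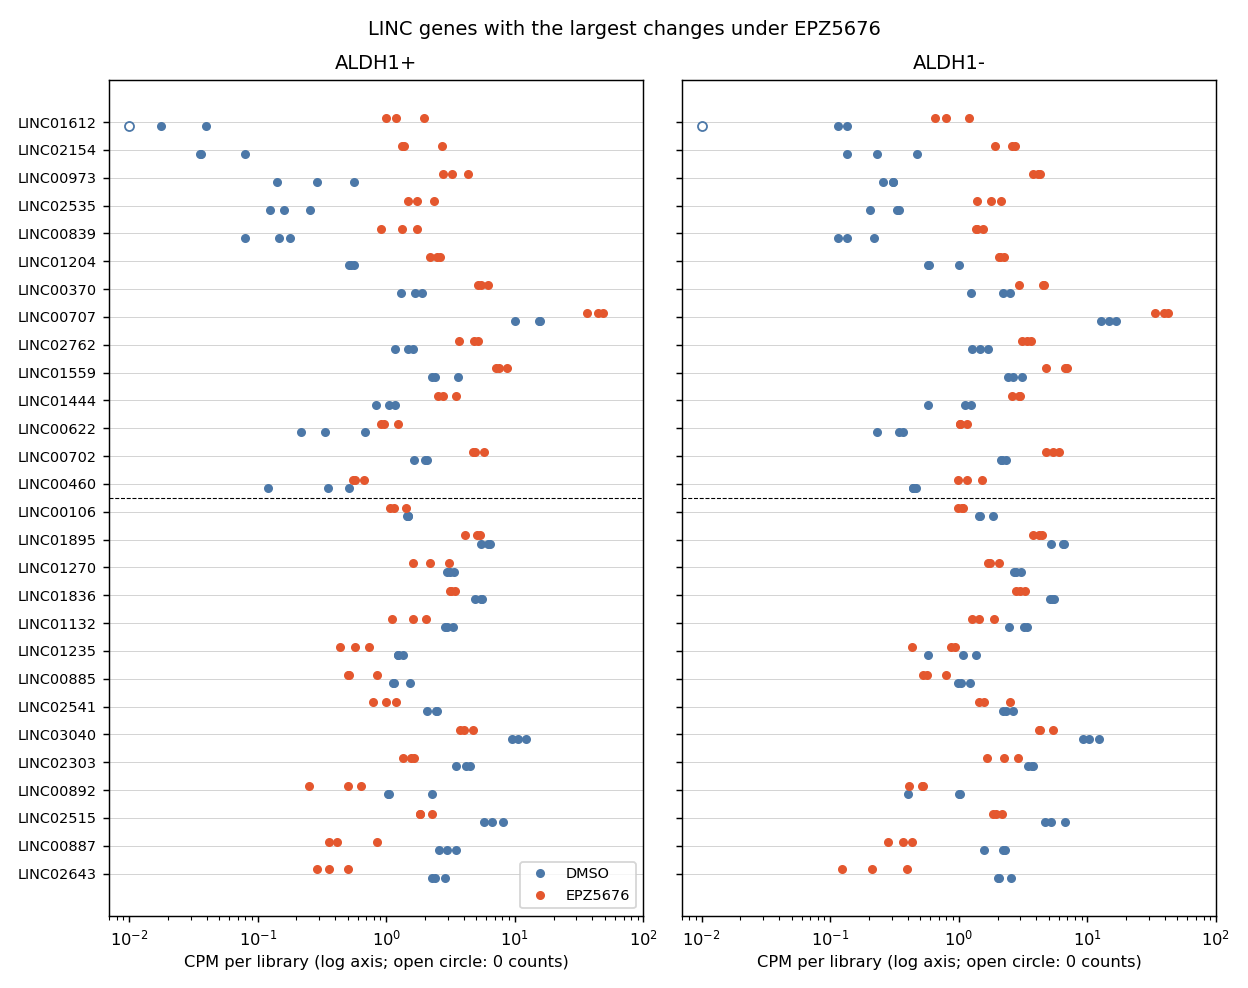
CPM in each of the 3 libraries per group, on a log axis, for the 14 LINC genes with the largest rises (above the dashed line) and the 14 with the largest falls (below it), in ALDH1+ (left) and ALDH1- (right). Blue points are DMSO, orange points are EPZ5676 and an open circle is a library with 0 counts; LINC00973 lies between 2.76 and 4.30 CPM in the EPZ5676 libraries and at or below 0.557 CPM in DMSO.

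Promoters of the strongest responders are shown because genes that rose or fell together can be compared at their starts. They are the 4 largest rises and the 2 largest falls of ALDH1+ with an entry in the RefSeq table of build GRCh38.p14; LINC02154 has none. Each sequence runs 5′ to 3′ on the strand of the gene, from 250 bases before the start to 50 bases after it. Capitals mark matches, on either strand, to TGANTCA (the AP-1 motif), TATAAA (the TATA box), GGAATG (the TEAD motif) or the 10-letter interferon response motif, and no match overlaps another. The 4 rises come first, at chr4:170226341-170226640 (plus strand), chr3:98914316-98914615 (plus), chr6:85404753-85405052 (minus) and chr10:42475241-42475540 (plus). The 2 falls are at chr10:21372901-21373200 and chr3:194312755-194313054, both on the minus strand.
LINC01612: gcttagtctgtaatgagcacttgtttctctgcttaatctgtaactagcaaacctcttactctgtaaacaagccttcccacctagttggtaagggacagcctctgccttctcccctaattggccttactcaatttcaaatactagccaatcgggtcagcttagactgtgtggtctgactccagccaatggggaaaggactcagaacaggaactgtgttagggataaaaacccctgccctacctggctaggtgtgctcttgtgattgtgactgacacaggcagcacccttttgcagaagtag
LINC00973: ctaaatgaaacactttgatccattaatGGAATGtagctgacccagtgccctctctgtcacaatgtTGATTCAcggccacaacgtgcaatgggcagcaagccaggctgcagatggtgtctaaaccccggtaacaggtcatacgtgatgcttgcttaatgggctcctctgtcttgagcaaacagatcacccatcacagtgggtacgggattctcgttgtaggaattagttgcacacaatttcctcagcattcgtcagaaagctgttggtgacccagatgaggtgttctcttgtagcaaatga
LINC02535: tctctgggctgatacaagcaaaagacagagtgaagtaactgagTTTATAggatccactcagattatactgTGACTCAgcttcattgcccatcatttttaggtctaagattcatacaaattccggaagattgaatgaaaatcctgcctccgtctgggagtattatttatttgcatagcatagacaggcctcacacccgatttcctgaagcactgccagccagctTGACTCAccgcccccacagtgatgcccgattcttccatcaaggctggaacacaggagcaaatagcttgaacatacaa
LINC00839: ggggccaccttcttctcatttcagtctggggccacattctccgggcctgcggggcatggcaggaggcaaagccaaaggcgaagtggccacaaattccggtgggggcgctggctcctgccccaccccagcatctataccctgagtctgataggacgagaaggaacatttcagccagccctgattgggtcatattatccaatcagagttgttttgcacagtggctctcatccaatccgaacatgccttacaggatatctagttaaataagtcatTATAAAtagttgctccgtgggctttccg
LINC02643: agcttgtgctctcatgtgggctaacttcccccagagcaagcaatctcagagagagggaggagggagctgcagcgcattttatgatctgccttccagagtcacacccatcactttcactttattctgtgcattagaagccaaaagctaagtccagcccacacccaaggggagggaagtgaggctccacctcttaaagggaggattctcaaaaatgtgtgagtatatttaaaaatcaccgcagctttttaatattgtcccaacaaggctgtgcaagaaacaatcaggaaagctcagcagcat
LINC00887: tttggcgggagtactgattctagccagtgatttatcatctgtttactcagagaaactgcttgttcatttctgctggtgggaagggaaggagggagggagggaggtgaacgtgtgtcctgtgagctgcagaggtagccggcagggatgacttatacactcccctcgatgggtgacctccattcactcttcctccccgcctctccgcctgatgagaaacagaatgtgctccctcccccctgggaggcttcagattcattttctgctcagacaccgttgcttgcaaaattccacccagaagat

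The AP-1 letters occurred in the promoters of LINC00973 and, at 2 places, LINC02535, the TEAD letters in LINC00973, and TATAAA in LINC02535 and, after the start, LINC00839. LINC01612 and both genes that fell held none of the motifs in this window. Of 52 promoters of LINC genes called higher in either population, 10 (19.2%) held the AP-1 letters, as did 5 of 22 (22.7%) of those called lower. The share was 14% of 157 promoters of all tested LINC genes, 4.94% of 11345 promoters of all tested genes and 7.76% of all 27305 promoters of the table. TATAAA was in 15.4% of the promoters of the LINC genes called higher, 13.6% of those called lower and 12.7% of tested LINC promoters, against 6.02% of all tested genes. GGAATG was in 11.5%, 18.2%, 15.9% and 11% in the same order. The interferon response motif was in 1.92% of those called higher, 0 of 22 called lower, 1.27% of tested LINC promoters and 2.63% of all tested genes. Base composition differs beside these shares, with a median GC content of 54.7% in promoters of tested LINC genes and 65.3% in those of all tested genes. A match is a run of letters and shows no binding.

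The protein-coding genes next to LINC genes moved in the same direction more often than in the other. Neighbours were taken as the nearest protein-coding gene on each side in the gene order of GENCODE 29. Beside LINC genes called higher in ALDH1+, 97 flanking genes were tested, of which 36.1% were called higher and 14.4% lower. Beside LINC genes called lower, 13.3% of 45 were higher and 35.6% lower, and beside those not called, 14.6% of 199 were higher and 20.1% lower. ALDH1- gave the same order: 34.7% higher and 8.33% lower of 72, 8.82% and 29.4% of 34, and 14.3% and 11.3% of 230. Genes near each other are not independent, so no test was applied.

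**Figure D5:**
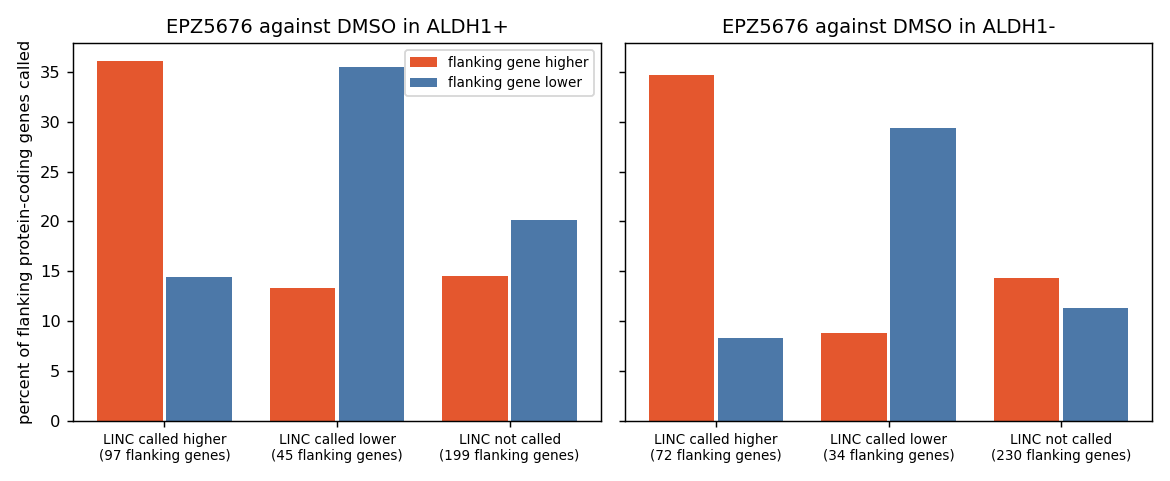
Percent of flanking protein-coding genes called higher (orange) or lower (blue) in EPZ5676, by the call of the LINC gene they flank, in ALDH1+ (left) and ALDH1- (right). The orange bar is the taller beside LINC genes called higher, at 36.1% and 34.7%, and the blue bar is the taller beside those called lower, at 35.6% and 29.4%.

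The 2 strongest pairs lie on opposite strands. Upstream of LINC02535 is NT5E, which encodes the ecto-5′-nucleotidase CD73 that makes adenosine outside the cell, and it went from 82.1 ± 16.7 to 343 ± 48.4 CPM in ALDH1+ and from 99.3 ± 21.0 to 351 ± 52.1 in ALDH1- (SD, n = 3). Its log2 fold changes were 2.07 (SE 0.17, edgeR adjusted p = 5.94e-07) and 1.82 (SE 0.17, adjusted p = 3.26e-06). Upstream of LINC00973 is DCBLD2, a transmembrane receptor, which went from 84.0 ± 11.5 to 270 ± 43.3 CPM in ALDH1+ and rose by 1.69 and 1.49 on the log2 scale.

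LINC02762 and the neural cell adhesion gene NCAM1, on the same strand, rose by 1.66 and 1.55 on the log2 scale in ALDH1+. EFNB2, an ephrin ligand beside LINC00460, rose by 0.89 and 0.76 in the 2 populations, EMP1, an epithelial membrane protein beside LINC01559, by 0.70 and 0.55, and AADAT, an aminotransferase beside LINC01612, by 0.41 and 0.57. Among the falls, LINC03040 lies next to VEGFA, the angiogenic growth factor, which fell by 0.62 and by 0.51. NFIB, a transcription factor beside LINC01235, fell by 0.70 and by 0.71, TFRC, the transferrin receptor beside LINC00885, by 0.32 and by 0.35, and NEBL beside LINC02643 by 0.44 and by 0.38. HES1, a Notch target beside LINC00887, fell by 0.61 in ALDH1+ and was at -0.15 in ALDH1- (edgeR adjusted p = 0.371), although LINC00887 fell in both.

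Other neighbours moved against their LINC gene or were not called. MYL12B rose by 0.23 in ALDH1- (edgeR adjusted p = 0.0367) beside LINC01895, which fell there. VGLL1 rose by 0.22 in ALDH1- (edgeR adjusted p = 0.0413) beside LINC00892, whose own change of -0.73 there was not called. Not every called neighbour is named here, and those that follow did not pass the test. IRS2 beside LINC00370 was at -0.02 in ALDH1+, ZNF33B beside LINC00839 at -0.16, and FAT1 and ZFP42, on either side of LINC02515, at 0.08 and -0.13. KLF6 beside LINC00702 was at -0.14 with an SE of 0.33. Of the 237 tested LINC genes, 17 overlap a protein-coding gene in GENCODE 29, 11 on the same strand and 7 on the opposite one; since the strand setting of the counting is not given in the sources used here, reads of such pairs cannot be told apart.

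Of the 8 LINC genes with the most counts, LINC00707 alone changed at least 2-fold. Per kb of annotated exon, LINC00665 had the highest level of the LINC genes named here, with 18.2 CPM per kb over the 12 libraries, and next came LINC01895 with 13.0 and LINC01819 with 10.5. LINC00665 had 138, 134 and 121 CPM in DMSO ALDH1+ and 132, 130 and 135 in EPZ5676 ALDH1+, with full overlap and a log2 fold change of 0.01 (SE 0.06, edgeR adjusted p = 0.891). Its sign turned without DMSO ALDH1+ replicate 3 (-0.04) or EPZ5676 ALDH1+ replicate 3.

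LINC01278 had 68.4, 68.1 and 67.5 CPM in DMSO ALDH1- and 53.8, 57.6 and 51.3 in EPZ5676 ALDH1-, without overlap, and fell by 0.33 on the log2 scale (edgeR adjusted p = 0.0112). In ALDH1+ it was at -0.19 (adjusted p = 0.106), and passed without EPZ5676 ALDH1+ replicate 3 (-0.25, adjusted p = 0.045). LINC01128 rose by 0.32 in ALDH1+ (adjusted p = 0.00928), which was lost at the threshold without EPZ5676 ALDH1+ replicate 1 (0.26, adjusted p = 0.050), and was at 0.15 in ALDH1- (adjusted p = 0.226). LINC00667 passed narrowly at 0.19 and 0.21 (adjusted p = 0.0462 and 0.0374) and lost both calls with no filter (adjusted p = 0.196 and 0.160). In ALDH1+ its call was also lost without DMSO replicate 1 or 2 or any 1 EPZ5676 library, and in ALDH1- without DMSO replicate 2 or 3 or any 1 EPZ5676 library. LINC01819 passed at 0.30 in ALDH1- alone (adjusted p = 0.043), a call lost without DMSO ALDH1- replicate 1 or 2 or any 1 EPZ5676 ALDH1- library (adjusted p up to 0.153); in ALDH1+ it was at 0.19 and passed without DMSO ALDH1+ replicate 3 (0.29, adjusted p = 0.046).

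LINC00511 and LINC00662, both studied as growth-promoting RNAs in cancer, were not called. LINC00511 was at 0.20 in ALDH1+ (edgeR adjusted p = 0.0539) and 0.18 in ALDH1- (adjusted p = 0.121), and 6 of 14 alternative settings, leaving out EPZ5676 ALDH1+ replicate 3 among them (adjusted p = 0.037), brought the first past the threshold, as the replicate block did the second (adjusted p = 0.048). LINC00662 was at 0.28 and 0.17 and passed in ALDH1+ without DMSO ALDH1+ replicate 3 (0.50, adjusted p = 0.0047) and with no filter (adjusted p = 0.040).

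Of 20 LINC genes taken as a list of those with published work in cancer or breast cells, 16 were in the table and 12 were tested. In ALDH1+ 5 rose and 1 fell (edgeR), beside 17.8% and 13.7% of all tested genes. In ALDH1- 5 rose and 0 fell, beside 13.6% and 9.04%. By DESeq2 0 fell in ALDH1-, and 1 fell there at an unadjusted p below 0.05. The list was chosen with earlier results of these data known. LINC00973, LINC00839 and LINC00520, among the rises of both populations, passed the count filter only through their EPZ5676 libraries. The median log2 fold change of the 12 was 0.47 and 0.26. LINC01133 had 19.3, 22.7 and 22.8 CPM in DMSO ALDH1+ and 30.1, 39.7 and 26.8 in EPZ5676 ALDH1+, all treated libraries above the controls, and rose by 0.58 (SE 0.14, adjusted p = 0.00567). LINC00963 rose by 0.58 in ALDH1+ (adjusted p = 0.000389) and was at 0.26 in ALDH1-, past the threshold there with the replicate block (adjusted p = 0.037) and without DMSO ALDH1- replicate 1 (0.33, adjusted p = 0.045).

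LINC00520 had 3 counts in DMSO ALDH1+ and 47 in EPZ5676 ALDH1+, a ratio of CPM of 12.4 with a 95% counting interval of 4.0 to 62.4, and in ALDH1- its rise (2.03, edgeR adjusted p = 0.0271) was lost by DESeq2 and without DMSO ALDH1- replicate 1 or 3 or EPZ5676 ALDH1- replicate 1 or 2 (adjusted p up to 0.119). LINC00472 passed in ALDH1- (0.58, adjusted p = 0.0149), a call lost without DMSO ALDH1- replicate 1 (adjusted p = 0.062), EPZ5676 ALDH1- replicate 1 (0.053) or EPZ5676 ALDH1- replicate 2 (0.076), and in ALDH1+ it was at 0.36 and passed without DMSO ALDH1+ replicate 1 (0.48, adjusted p = 0.033). LINC00339 was at -0.38 in ALDH1+ and -0.25 in ALDH1-. It passed in ALDH1+ with the replicate block (-0.35, adjusted p = 0.012) and in ALDH1- without EPZ5676 ALDH1- replicate 3 (-0.48, adjusted p = 0.036). LINC00467 was at 0.05 and 0.09, with no call.

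A list of well-known long noncoding RNAs with other names moved in both directions. Of 28 tested, 7 rose and 10 fell in ALDH1+ (beside 17.8% and 13.7% of all tested genes) and 5 and 5 in ALDH1- (beside 13.6% and 9.04%), with medians of -0.17 and -0.12. This is a hand-picked list, and among all 1619 long noncoding genes without a LINC symbol more were called higher than lower, as given above. HCP5, from the HLA locus, went from 4.09 to 11.2 CPM in ALDH1+ and rose by 1.47 (SE 0.14, edgeR adjusted p = 3.03e-06) and by 1.39 in ALDH1-, the most of the list. MIR22HG and UCA1, an RNA raised in bladder cancer, rose by 0.75 and 0.73 in ALDH1+, while H19, the imprinted fetal RNA, fell by 0.72. Of 15 snoRNA host genes 0 rose in ALDH1+ (also 0 by DESeq2 and at an unadjusted p below 0.05). There 4 fell, beside 13.7% of all tested genes, with SNHG3, SNHG6, SNHG29 and SNHG1 at -0.37, -0.35, -0.31 and -0.21. In ALDH1- 1 (SNHG29) fell, beside 9.04% of all tested genes.

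Few genes for the machinery that degrades or ends noncoding transcripts were called. Over all tested genes, 31.5% were called in ALDH1+ and 22.6% in ALDH1- (edgeR). Of 22 genes of the nuclear RNA exosome, which degrades unstable nuclear RNA, and its adaptors, 0 were called in either population (edgeR; 0 by DESeq2), with 3 in ALDH1+ and 2 in ALDH1- at an unadjusted p below 0.05 and medians of -0.01 and 0.01. Of 14 subunits of Integrator, which cleaves nascent noncoding RNA, INTS7 alone was called, and it fell by 0.26 in ALDH1-; in ALDH1+ 0 were called by edgeR or DESeq2, with 1 at an unadjusted p below 0.05. Whether either bears on the LINC genes was not tested.

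Between ALDH1+ and ALDH1- cells no LINC gene was called in either treatment, where 0% and 0.0184% of all tested genes were (edgeR). At an unadjusted p below 0.05, 24 of the 237 LINC genes differed in DMSO, beside 2904 of all 16327 tested genes. In EPZ5676 19 differed, beside 1032 of all tested genes, and DESeq2 called 0 LINC genes in both. In the difference of the EPZ5676 effect between the populations 0 LINC genes were called (0% of all genes), and 0 by DESeq2. There 13 had an unadjusted p below 0.05, beside 597 of all tested genes. With the replicate number as a block, 5 LINC genes passed as lower and 1 as higher in ALDH1+ than in ALDH1- of the DMSO cells, where that fit called 5.02% of all tested genes lower and 3.45% higher. The 5 were LINC00174 (log2 fold change -0.56, adjusted p = 0.0266), LINC02604 (-0.54, adjusted p = 0.0244), LINC01606 (-0.36, adjusted p = 0.0482), LINC02688 (-1.17, adjusted p = 0.0395) and LINC00365 (-1.29, adjusted p = 0.0402). The 1 higher was LINC00892 (0.88, adjusted p = 0.0425), and in EPZ5676 LINC01291 was lower (-1.42, adjusted p = 0.0467), where the fit called 0.269% of all tested genes lower. These 7 names were chosen after their values were seen.

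Markers of epithelium were present and some of them changed. The 8 epithelial markers summed to 16167 to 20672 CPM, with EGFR the largest among them at 5951 to 9838 CPM as group means. In ALDH1+ EPCAM, CDH1, KRT8 and KRT19 fell (by 0.28, by 0.55, by 0.25 and by 0.31 on the log2 scale) and KRT17 and EGFR rose by 1.20 and 0.63, and in ALDH1- CDH1 fell by 0.67 and KRT17 rose by 1.16. Among hormone receptors, PGR had at most 0.0117 CPM as a group mean, and ESR1 had 7.38 to 10.3 CPM. ALDH1A3 rose by 0.25 and ALDH1A1 fell by 1.51 in ALDH1+, and neither was called between the sorted populations. Of 9 markers of leukocytes, endothelium and fibroblasts in the table, 4 were tested. With EPZ5676 4 rose in ALDH1+ and 3 in ALDH1-, beside 17.8% and 13.6% of all tested genes. The summed level of the 9 was 13.9 to 20.1 CPM in DMSO ALDH1+ and 32.3 to 34.1 in EPZ5676 ALDH1+, and 16.8 to 23.0 and 28.2 to 36.1 in ALDH1-, nearly all of it COL1A1 and CSF1R. CD3E had at most 0.0122 CPM as a group mean and DCN had 0 counts, and the part of these markers in the LINC results was not tested.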

How the data were processed

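Bulk RNA sequencing of 12 libraries was read from 1 gene-level table of raw read counts, which the authors deposited without normalization. Per the submitters' processing notes, which give no versions, the tools and build were Trim Galore, STAR and hg19. How reads were assigned to genes, and with what annotation and strand option, is not given in the sources used here. Each column name gives the treatment, population and replicate number of 1 labelled sample. Symbols came from a table of Ensembl identifiers (39501 of 57783 matched), and types from GENCODE 29. Exon lengths, neighbours and overlaps were worked out from the gene and exon positions of GENCODE 29. Those positions are not of the hg19 build to which the reads were aligned. The 5 LINC symbols held by more than 1 gene are not among those tested.

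Counts were fitted in R 4.3.3 with edgeR 4.0.16 (filterByExpr by group, TMM factors 0.975 to 1.021, quasi-likelihood F test, Benjamini-Hochberg adjustment over 16327 genes), with 1 term for each of the 4 groups over all 12 libraries. The common coefficient of biological variation came to 9.58%. The script was tested on simulated data. Standard errors were derived from each fold change and F value. Intervals and the floor of 3 counts cover counting error only. Same-numbered libraries deviated together (correlations of 0.162 to 0.596 in all 18 pairs over 13576 genes, against -0.609 to 0.185 in 36 pairs of different number), so the replicate numbers pair the libraries. A fit with that block, DESeq2 1.42.0, other scalings and filters, a fit restricted to the compared groups, and fits without 1 library at a time were alternatives.

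Named genes were the 10 largest called rises and falls per population (groups not overlapping, at least 1 CPM), the 8 most counted LINC genes, genes called in the other comparisons, and a list of studied LINC genes; from other lists up to 4 of the smallest p. Members, lists and rules were chosen with earlier results of these data known.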

Additional observations from a re-analysis of the deposited data

How the results depend on the processing

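Of 180 alternative values of the main counts and shares, 167 kept their direction and stayed on the same side of the threshold or within 1.5 times of the value reported. The number of LINC genes called higher in ALDH1+ was 40 with a filter of 1 CPM in 3 libraries, and in ALDH1- it was 25 with that filter and 29 with a filter on mean CPM; both leave fewer genes tested. With no filter, 2 LINC genes were called higher and 4 lower in ALDH1+ than in ALDH1- of the DMSO cells, and 1 and 3 in EPZ5676. With the replicate block, 1 was higher and 5 lower in DMSO, and 1 was lower in EPZ5676; the cause was not tested. The block changed no other of these counts by more than 1.5 times.

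Leaving out each library in turn gave 49 to 71 LINC genes higher and 20 to 35 lower in ALDH1+, 29 to 53 higher and 12 to 19 lower in ALDH1-, and 0 in the other comparisons. The 29 came without EPZ5676 ALDH1- replicate 2, and the 12 without DMSO ALDH1- replicate 2 or EPZ5676 ALDH1- replicate 1. The difference in the LINC share stayed between 97.5 and 110.5 ppm and that in LINC genes detected between 59.6 and 64.7. Of 82 values of single genes, 56 kept their call and direction throughout. Those that turned were LINC00467 in ALDH1+ (-0.0035 without EPZ5676 ALDH1+ replicate 2, to 0.096), LINC00467 in ALDH1- (-0.014 without EPZ5676 ALDH1- replicate 3, to 0.16), and LINC00665 in ALDH1+ (-0.042 without DMSO ALDH1+ replicate 3, to 0.052; also below 0 without EPZ5676 ALDH1+ replicate 3). None of these had been called. Genes with a few counts in DMSO have fitted fold changes that rest on the prior count, and 752 LINC genes with some counts were below the depth the test needs.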
